A study of Mus musculus with 6 samples.

Results

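Cathepsins are the main proteases of lysosomes and late endosomes, and 8 of them were followed here together with the lysosomal protease legumain and the cathepsin inhibitor cystatin C. The 10 genes are Ctsa, Ctsb, Ctsc, Ctsd, Ctsh, Ctsl, Ctss, Ctsz, Lgmn and Cst3. They were taken by symbol from the 17567 gene rows of each library. All 10 had a row and passed the filter on low counts, which left 12209 genes for testing. The lowest count of any of them in a library was 2356 (Ctsh) and the highest 75092 (Ctsd), so no value of theirs rests on few counts.

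The cells were immature dendritic cells of the mouse, which take up antigen and have not yet matured. They were grown from bone marrow of C57BL/6 mice, labelled male and aged 6 weeks. The medium held 20 ng/mL GM-CSF, 10 ng/mL interleukin-4 and 10% serum. The cells were taken on day 6 and enriched with magnetic beads for CD11c, the integrin encoded by Itgax. The H2O2 group then received hydrogen peroxide at 100 µM for 24 h to model oxidative stress. The other group is labelled control, with no word on whether it was cultured for that further time. Both groups share the same strain, cytokines and bead selection. RNA was measured in bulk, so fewer cells of one type and less RNA per cell cannot be told apart in any value below.

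Cathepsins are made as inactive precursors, tagged with mannose 6-phosphate in the Golgi, and activated in acidic compartments. In dendritic cells they cut antigens into peptides and degrade the invariant chain, the chaperone that blocks the peptide groove of MHC class II molecules. Cystatins bind the active site cleft of the papain-like cathepsins and block it, and cystatin C is a known product of conventional dendritic cells.

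The labels give 3 samples per group, but the values of H2O2 replicate 3 equalled those of H2O2 replicate 1 in every gene. They were counted once, which left 3 control and 2 H2O2 libraries with totals between 16232604 and 16672491 estimated counts. The 5 libraries also split by Y-linked transcripts, although all mice were labelled male. The sum over 4 Y-linked genes was 106 CPM (counts scaled to a common library size) for control replicate 1, 96.4 CPM for H2O2 replicate 1 and at most 0.427 CPM for the other 3. Set A is the pair of libraries with these transcripts, one from each group, and set B the other 3, with control replicates 2 and 3 and H2O2 replicate 2. Comparisons were fitted with a term for the set. This term was chosen with earlier results of these data known, from a split by sample title that the Y-linked counts matched. Without the term, 0 of 12209 genes passed the test used below. The labels do not say whether samples came from separate mice or cultures, so the spread behind each p-value is that of these samples and may be technical.

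Of the 8 cathepsins, 6 are papain-like cysteine proteases: Ctsb, Ctsc, Ctsh, Ctsl, Ctss and Ctsz. The stretch of coding sequence around the catalytic cysteine is shown for these 6 because it is the feature that defines the family and that the deposited counts have to tell apart. The codon of the catalytic cysteine is in capitals, with 18 bases on either side, read from GENCODE M21 transcripts of build GRCm38.p6.
Ctsb: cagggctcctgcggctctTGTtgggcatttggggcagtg
Ctsl: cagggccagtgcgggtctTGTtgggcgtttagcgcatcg
Ctss: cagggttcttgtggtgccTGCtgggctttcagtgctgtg
Ctsh: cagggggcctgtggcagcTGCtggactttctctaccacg
Ctsc: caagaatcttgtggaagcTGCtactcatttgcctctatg
Ctsz: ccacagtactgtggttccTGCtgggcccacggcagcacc
Ctsb and Ctsl were the most alike pair in this window, with the same base at 30 of 39 positions. Ctsc and Ctsl were the least alike, with 17 of 39. Over whole transcripts the 10 genes shared 0 stretches of 31 bases with each other, so reads of that length without a mismatch belong to one of them only.

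After H2O2, transcripts of 3 of the 10 genes rose: Ctsl, Ctsb and Ctsd. None of the 10 fell by the same test, edgeR's quasi-likelihood test at an adjusted p (Benjamini-Hochberg) of 0.05 or less, with 7 of the 10 at an unadjusted p under 0.05, against 27.8% of all genes. Among all 12209 genes 3.93% were called higher and 4.61% lower, 8.54% in all. With library totals in place of TMM factors the split over all genes was 384 higher and 910 lower, against 480 and 563. The log2 change was positive in 8 of 10 genes, against 51.6% of all genes, and its median was 0.28, against 0.0089 over all genes. Every H2O2 library lay above every control library for 5 of 10 genes (Ctsa, Ctsb, Ctsd, Ctsl and Ctsz), against 13% of all genes. The reverse held for 0 of 10 genes, against 10.7%. Within the sets, H2O2 lay above the controls of its own set in both sets for 7 genes, against 28.5% of all genes. It lay below them in both sets for Ctsc and Cst3, against 28%.

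**Figure D1:**
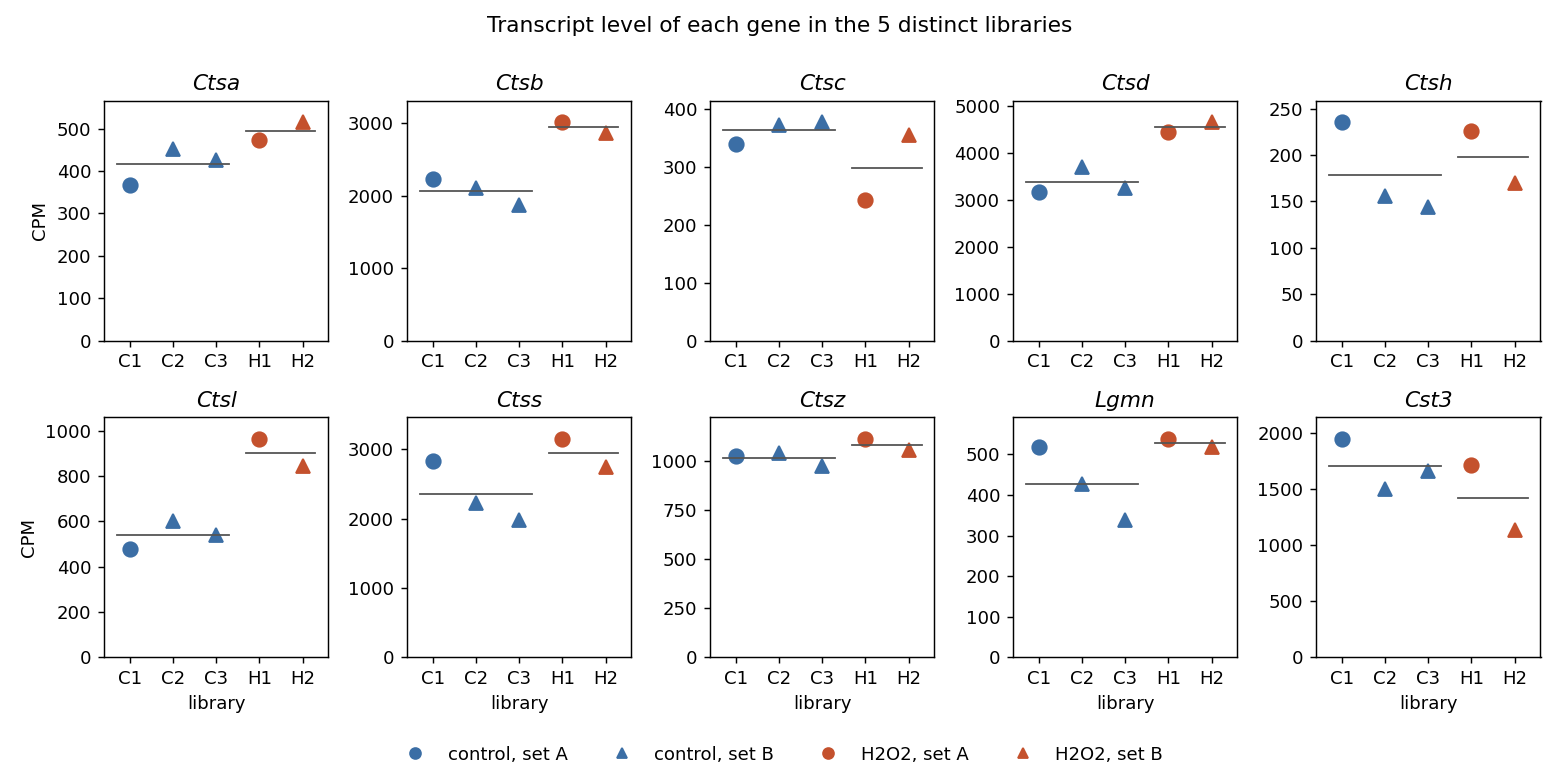
Level of each of the 10 genes in the 5 distinct libraries, in CPM on linear axes that start at 0; circles are set A and triangles set B, blue is control (C1 to C3) and orange H2O2 (H1 and H2), numbered by replicate, and lines are group means. Both H2O2 points lie above all 3 control points for Ctsl, Ctsb, Ctsd, Ctsa and Ctsz, while those of Ctss, Ctsh, Lgmn, Ctsc and Cst3 overlap with the controls.

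Ctsl encodes cathepsin L, an endopeptidase that degrades the invariant chain in thymic epithelium and many proteins in lysosomes. It lies on chromosome 13 from 64361890 to 64370772, on the minus strand of GRCm38.p6. Its level was 479, 604 and 538 CPM in control replicates 1 to 3 and 963 and 844 CPM in H2O2 replicates 1 and 2. Both H2O2 libraries were well above all controls, and the lowest control was the set A library. The means were 541 ± 62.3 CPM (SD, n = 3) in control and 904 ± 84.4 CPM (SD, n = 2) in H2O2 libraries. Ctsl rose 1.69-fold, a log2 change of 0.76 ± 0.11 (SE, edgeR adjusted p = 0.0213), the largest change of the 10 genes in this fit. Set A gave a log2 change of 1.01 and set B 0.56, and the difference between them did not pass its test (edgeR adjusted p = 0.252). The call was lost without H2O2 replicate 2 (adjusted p = 0.0994), without the set term (0.690) and without the filter on low counts (0.0527), in a range over 14 tested alternatives from 6.56e-08 to 0.690.

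Ctsb encodes cathepsin B, an endopeptidase that also removes dipeptides from the carboxyl end of proteins. It lies on chromosome 14 from 63122462 to 63145923, on the plus strand. Its level was 2230, 2107 and 1875 CPM in control replicates 1 to 3 and 3011 and 2870 CPM in H2O2 replicates 1 and 2. The groups did not overlap, and each set showed a change of like size. Ctsb rose 1.40-fold from 2071 ± 180 CPM (SD, n = 3) to 2941 ± 99.6 CPM (SD, n = 2), a log2 change of 0.49 ± 0.079 (SE, edgeR adjusted p = 0.0240). Set A gave 0.43 and set B 0.53 on the log2 scale. The call was lost without control replicate 3 (adjusted p = 0.0718), without H2O2 replicate 2 (0.207), without the set term (0.702) and without the filter (0.0549), in a range from 7.79e-05 to 0.702.

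The other papain-like cathepsins did not pass the test. Ctss encodes cathepsin S, the endopeptidase that makes the last cuts in the invariant chain in dendritic cells and B cells (chromosome 3, 95526786 to 95556405, plus strand). Its level was 2829, 2230 and 1984 CPM in the controls and 3144 and 2746 CPM with H2O2, so H2O2 replicate 2 lay below control replicate 1 and above the controls of its own set. The log2 difference was 0.28 ± 0.088 (SE, edgeR adjusted p = 0.0936), from set A alone 0.15 and from set B alone 0.38. Without control replicate 1 or without H2O2 replicate 1, set B alone gives the effect. The log2 change was then 0.37 and 0.38, and of these fits only that without control replicate 1 passed the test. Ctsz encodes cathepsin Z, a carboxypeptidase also called cathepsin X (chromosome 2, 174427494 to 174439039, minus strand). It had the smallest spread over the 5 libraries relative to its mean, at 1029, 1044 and 977 CPM in the controls and 1113 and 1058 CPM with H2O2. The log2 difference was 0.087 ± 0.069 (SE, edgeR adjusted p = 0.456). With library totals in place of TMM factors, Ctsz was 998 CPM in H2O2 replicate 2 and 1070.2 CPM in control replicate 1, so the groups then overlapped.

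Ctsh encodes cathepsin H, an aminopeptidase (chromosome 9, 90054267 to 90076095, plus strand). Its level followed the sets, at 235 and 225 CPM in the control and H2O2 library of set A, against 156, 144 and 170 CPM in the set B libraries. The log2 difference was 0.078 ± 0.084 (SE, edgeR adjusted p = 0.591), from -0.061 in set A to 0.18 in set B. Ctsc encodes cathepsin C, a dipeptidyl peptidase that activates the serine proteases of granules (chromosome 7, 88278024 to 88315861, plus strand). Its level was 339, 372 and 376 CPM in the controls, with 243 and 354 CPM in H2O2 replicates 1 and 2. The low value was that of one library, and H2O2 replicate 2 lay inside the control range. The log2 difference was -0.25 ± 0.099 (SE, edgeR adjusted p = 0.158), from set A alone -0.48 and from set B alone -0.081. The difference between the sets had an unadjusted p of 0.0073 and an adjusted p of 0.175 in edgeR's interaction test. Over all genes that test called 2 of 12209 (0.0164%), Zfp991 and Gm13212, named after their values were seen, and it called 0 of the 10 genes described here, with 2 (Ctsc and Ctsl) at an unadjusted p under 0.05, against 13.7% of all genes.

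Ctsd and Ctsa belong to other protease classes. Ctsd encodes cathepsin D, the main aspartic protease of lysosomes (chromosome 7, 142375910 to 142387827, minus strand). It had the highest CPM of the 10 genes in every library. Its level was 3156, 3699 and 3248 CPM in the controls and 4440 and 4649 CPM with H2O2, with no overlap. Ctsd rose 1.37-fold from 3368 ± 291 CPM (SD, n = 3) to 4544 ± 148 CPM (SD, n = 2), a log2 change of 0.45 ± 0.082 (SE, edgeR adjusted p = 0.0270), from set A alone 0.49 and from set B alone 0.42. This was the least stable of the 3 calls: it was lost with a replicate block in place of the set term (adjusted p = 0.0588), without control replicate 3 (0.0992), without H2O2 replicate 1 (0.0626), without H2O2 replicate 2 (0.199), without the set term (0.704) and without the filter (0.0560), in a range from 0.000405 to 0.704.

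Ctsa encodes cathepsin A, a serine carboxypeptidase that protects the lysosomal enzymes neuraminidase 1 and beta-galactosidase in a complex (chromosome 2, 164832872 to 164841032, plus strand). Its level was 368, 452 and 426 CPM in the controls and 473 and 515 CPM with H2O2. The H2O2 libraries were both above the controls, by a narrow margin over control replicate 2. The log2 difference of 0.29 ± 0.072 (SE, edgeR adjusted p = 0.0568) did not pass the test. Lgmn encodes legumain, which cuts after asparagine and processes cathepsin precursors (chromosome 12, 102394082 to 102439728, minus strand). Its level was 518, 426 and 338 CPM in the controls and 537 and 518 CPM with H2O2. Control replicate 1 was as high as the H2O2 libraries, and the log2 difference was 0.051 for set A and 0.44 for set B (0.27 ± 0.13 SE over both, edgeR adjusted p = 0.210). With set B alone giving the effect, the log2 change was 0.43 without control replicate 1 and 0.44 without H2O2 replicate 1. Of these fits only that without control replicate 1 passed the test.

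Cst3 encodes cystatin C, the inhibitor in the list (chromosome 2, 148871722 to 148875512, minus strand), and its values ran opposite to those of most of the proteases. Its level was 1941, 1497 and 1659 CPM in the controls, with 1709 and 1130 CPM in H2O2 replicates 1 and 2. The H2O2 library was below the controls of its own set in each set, but the groups overlapped across sets. The log2 difference was -0.35 ± 0.095 (SE, edgeR adjusted p = 0.0679), from set A alone -0.18 and from set B alone -0.48, and it did not pass the test. Cst3 passed as lower in 6 of 14 tested alternatives, in a range of adjusted p from 0.0105 to 0.839. Among them were DESeq2's Wald test (adjusted p = 0.0105) and library totals in place of TMM factors (edgeR adjusted p = 0.0407). Another counted the copied library separately. The rest were set B alone (log2 change -0.489) and the fits without control replicate 1 (-0.490) or H2O2 replicate 1 (-0.480). These all compare H2O2 replicate 2 with control replicates 2 and 3, so they are not separate support.

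**Figure D2:**
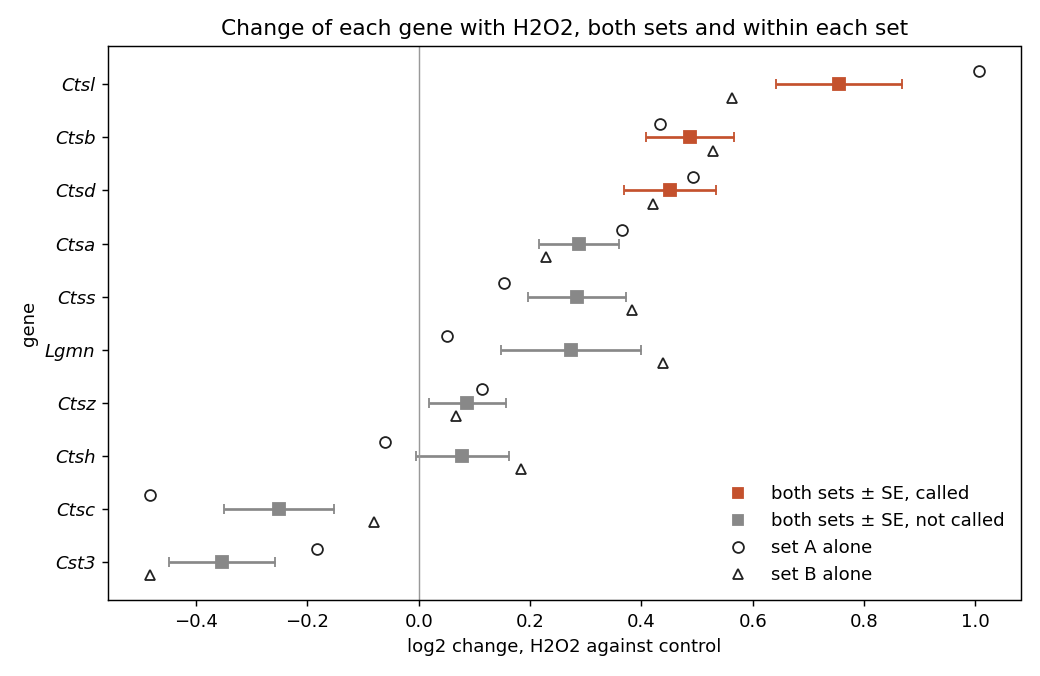
log2 change of each of the 10 genes with H2O2, from the fit over both sets as squares with bars of 1 SE (orange at an adjusted p of 0.05 or less, grey otherwise), and from set A alone (open circles) and set B alone (open triangles). Ctsl, Ctsb and Ctsd, the 3 called genes, lie to the right of 0 in both sets, as do the uncalled Ctsa, Ctss, Ctsz and Lgmn. Cst3 and Ctsc lie to the left of 0 in both sets.

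Ratios of counts within a library do not depend on the scaling between libraries. They are given as a description, since the pairs were chosen after the values were seen. Ctsl had 0.247, 0.403 and 0.325 counts per Cst3 count in the controls and 0.564 and 0.747 with H2O2. Ctsb had 1.15, 1.41 and 1.13 counts per Cst3 count in the controls and 1.76 and 2.54 with H2O2. For both proteases the ratio to the inhibitor was higher in each H2O2 library than in any control. Ctsl counts per Ctss count were 0.169, 0.271 and 0.271 in the controls and 0.306 and 0.307 with H2O2.

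Levels can be compared between genes only per length, here as CPM per kilobase of transcript over the 5 libraries. Ctss (1909 ± 347, SD), Cst3 (1846 ± 350) and Ctsd (1805 ± 320) were the most abundant transcripts per kilobase, and their order did not hold beyond their spread: Ctss was above Cst3 in 2 of 5 libraries and Cst3 above Ctsd in 3 of 5. Ctsz (725 ± 34.2) was below these in all 5 libraries, and Ctsb (510 ± 105) below Ctsz in all 5, without overlap. Ctsl (348 ± 106) and Lgmn (235 ± 42.3) came next, with overlapping ranges. Ctsc (135 ± 22.0), Ctsa (123 ± 15.05) and Ctsh (115 ± 25.7) were lowest, and neighbours in this group overlapped too. With the union of all annotated exons as the length, Ctsl stood at 111 and Ctsc at 63.2, so the places of these genes depend on the transcript model.

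**Figure D3:**
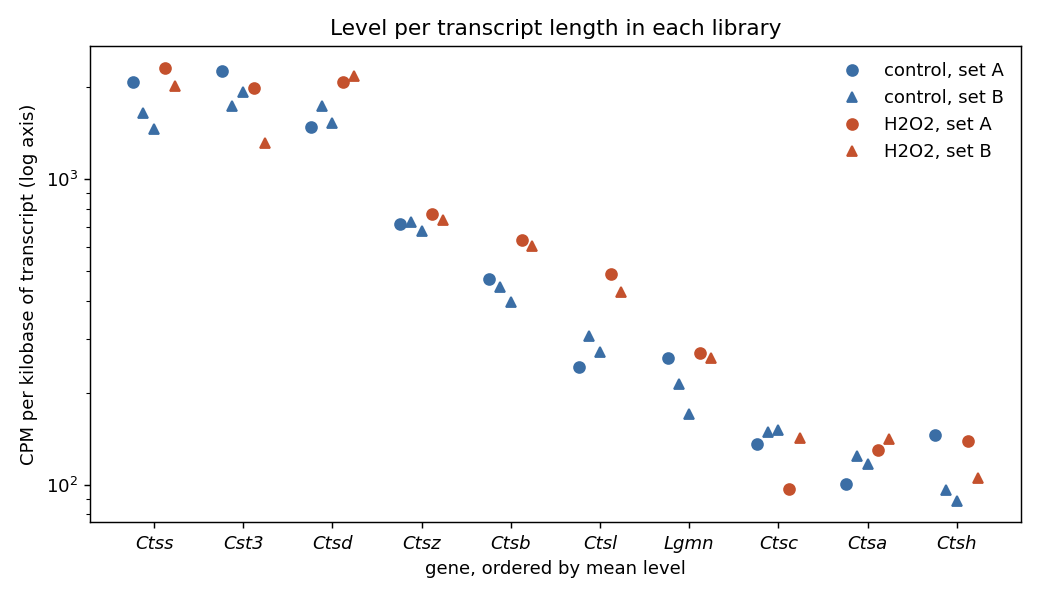
Level of each gene in CPM per kilobase of transcript in the 5 libraries, on a log axis, ordered by the mean; circles are set A and triangles set B, blue control and orange H2O2. Ctss, Cst3 and Ctsd lie together at the top, and Ctsc, Ctsa and Ctsh together at the bottom.

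Some transcripts share sequence with a neighbour, and no source used here says whether counting used strand. Of the 31-base stretches of the Ctsb transcript, 16.6% also occur in other genes, and 15.8% occur in Fdft1, which overlaps it on the opposite strand. Fdft1 averaged 40.1 CPM against 2419 CPM for Ctsb and had a log2 difference of -0.32 (edgeR adjusted p = 0.0695), the opposite sign. Of those of Ctsd, 37.1% occur in Gm49369, a gene model on the same strand with no row in the files, so the Ctsd value is uncertain in that respect. Of those of Ctsa, 19.3% occur in other genes, most in Pltp and Neurl2 on the opposite strand, where Pltp averaged 137 CPM with a log2 difference of -0.41 (adjusted p = 0.118). The transcripts used for Ctsl, Ctss, Ctsc, Ctsz and Cst3 shared 0 stretches with any other gene. Annotated exons of Ctsl nevertheless overlap those of Gm49230 on the same strand and Gm47123 on the opposite strand, which have no row in the files, so the Ctsl value is uncertain in that respect too. An exon of Nelfcd, which averaged 16.03 CPM, overlaps Ctsz on the opposite strand.

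The 250 bases before the start site are shown for Ctsd, which rose, and for Cst3, the inhibitor, whose difference had the opposite sign. RefSeq promoters of build GRCm38.p6 were found for 8 of the 10 genes, all but Ctsb and Ctsh, with 10 windows in all. Capitals mark CACGTG (the core that basic helix-loop-helix factors such as TFEB and USF bind), TGACNNNGC (the core of the antioxidant response element), TGANTCA (the AP-1 site), CCAAT and GGGCGG, searched on both strands, and they run together where motifs overlap. The sequences are chr7:142387828-142388077, minus strand, for Ctsd and chr2:148875513-148875762, minus strand, for Cst3.
Ctsd: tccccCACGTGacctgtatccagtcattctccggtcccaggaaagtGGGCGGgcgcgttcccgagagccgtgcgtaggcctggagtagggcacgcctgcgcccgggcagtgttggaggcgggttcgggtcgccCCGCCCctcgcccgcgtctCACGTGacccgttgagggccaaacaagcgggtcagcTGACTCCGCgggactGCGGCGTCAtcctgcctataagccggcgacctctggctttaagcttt
Cst3: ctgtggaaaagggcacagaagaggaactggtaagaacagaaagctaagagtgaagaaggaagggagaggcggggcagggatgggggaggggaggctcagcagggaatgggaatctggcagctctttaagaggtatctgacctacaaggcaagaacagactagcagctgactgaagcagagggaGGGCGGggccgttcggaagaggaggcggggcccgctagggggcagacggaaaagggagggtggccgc
The Ctsd window holds CACGTG at 245 and 98 bases before the start and TGACNNNGC at 62 and 47 bases before it. The Cst3 window holds neither, and has a GGGCGG. Across the genes, CACGTG occurred in 4 of the 10 windows, against 6.02% of 32851 windows of all genes, but apart from Ctsd the windows with it (Ctsa, Lgmn and Ctsl) begin at start sites inside the gene record. TGACNNNGC occurred in 2 of 10 windows (Ctsd and Ctsz) against 10.2%, TGANTCA in 0 of 10 against 6.75%, CCAAT in 2 of 10 against 33.8% and GGGCGG in 6 of 10 against 32.7%. These matches describe the sequence only.

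Other cathepsins moved in both directions. Of 6 listed, 5 were tested, with 1 higher and 1 lower and a median log2 change of 0.30. Ctsk, which encodes the collagen-degrading cathepsin K of osteoclasts, was at 45.7, 30.5 and 24.9 CPM in the controls and 64.6 and 82.3 CPM with H2O2. Ctsk rose by a log2 change of 1.12 ± 0.22 (SE, edgeR adjusted p = 0.0319), from set A alone 0.50 and from set B alone 1.57 (adjusted p of the difference 0.0759); the call was lost without control replicate 3 (log2 change 0.95), without H2O2 replicate 2 (0.50) and with DESeq2. Ctsg, the cathepsin G of granules, fell by 3.35 on the log2 scale (adjusted p = 0.0264), from 1.6, 3.0 and 6.8 CPM to 0.1 and 0.6 CPM, levels at which few counts decide the value; the call was lost without H2O2 replicate 2 (-4.62) and with limma-voom. Ctse (-0.36), Ctsf (0.43) and Ctso (0.30) did not pass.

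Among other cystatins, 1 of 6 tested genes was higher and 0 were lower, with a median log2 change of 0.35. The called gene was Cstb, encoding the cytosolic inhibitor cystatin B, at 203, 197 and 207 CPM in the controls and 281 and 273 CPM with H2O2. The groups stood apart, and Cstb rose by a log2 change of 0.45 ± 0.066 (SE, edgeR adjusted p = 0.0208); the call was lost without control replicate 3 (0.46) or H2O2 replicate 2 (0.47). Cystatin C and cystatin B thus had differences of opposite sign, of which only that of Cstb passed. Cst7 (0.17) and the stefins Stfa1, Stfa2, Stfa2l1 and Stfa3, near-identical copies that can exchange reads, had positive log2 differences that did not pass.

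Among 10 partners and antigen processing genes, 0 were higher and 3 were lower, with a median log2 change of -0.11. Cd74 encodes the invariant chain that the cathepsins degrade, and it fell by 0.41 on the log2 scale (edgeR adjusted p = 0.0259), from 2948, 3136 and 2895 CPM to 2249 and 2243 CPM. Both H2O2 libraries lay below all controls for Cd74. Ifi30, encoding the lysosomal thiol reductase GILT, fell by 0.41 on the log2 scale (edgeR adjusted p = 0.0275), and Prcp, a lysosomal carboxypeptidase, fell by 0.36 (edgeR adjusted p = 0.0270). For both, H2O2 was below the controls of its own set, but the groups overlapped across sets. Ifi30 was at 202, 159 and 151 CPM in the controls and 163 and 110 CPM with H2O2. Prcp was at 340, 206 and 201 CPM in the controls and 260 and 161 CPM with H2O2. Cd74 lost its call without control replicate 3 (-0.45) or H2O2 replicate 2 (-0.39). Ifi30 and Prcp lost theirs with the replicate block (-0.42 and -0.37), without control replicate 2 (-0.38 and -0.36), without control replicate 3 (-0.43 and -0.38) and without H2O2 replicate 2 (-0.32 and -0.39). Psap, the saposin precursor and most abundant gene of the list, had a log2 difference of 0.19 ± 0.079 (SE, edgeR adjusted p = 0.177). Neu1 (0.11) and Glb1 (-0.011), the enzymes that cathepsin A protects, did not pass.

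The 6 genes of mannose 6-phosphate tagging and sorting gave 0 calls, with a median log2 difference of 0.13 and all 6 positive; M6pr, the most abundant, had 0.12 ± 0.064 (SE). At an unadjusted p under 0.05 there were 2 of 6, against 27.8% of all genes. The MiT/TFE factors, transcription factors of lysosomal genes, also gave 0 calls of 4, with 2 at an unadjusted p under 0.05, to be read against the same share. Their log2 differences were 0.48 for Mitf (edgeR adjusted p = 0.0758), 0.40 for Tfec (0.0647), 0.095 for Tfeb (0.640) and 0.074 for Tfe3 (0.591). Those of Mitf and Tfec came mostly from set B, with 0.73 and 0.58 there against 0.14 and 0.13 in set A. Tfec was at 41.4, 83.4 and 82.1 CPM in the controls and 45.3 and 124 CPM with H2O2, so its groups overlapped. Of the granule proteases that cathepsin C activates, 5 were tested and 1, Mcpt8, was lower. Mcpt8 fell by 3.39 on the log2 scale (edgeR adjusted p = 0.0184), from 2.0, 7.0 and 11.5 CPM to 0.4 and 0.6 CPM, and without H2O2 replicate 2 its log2 change was -2.24 and not called. Elane, Gzma, Gzmb and Prtn3 had negative log2 differences that did not pass. Without the set term, and without the filter on low counts, none of the called genes of these 6 pathway lists passed.

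**Figure D4:**
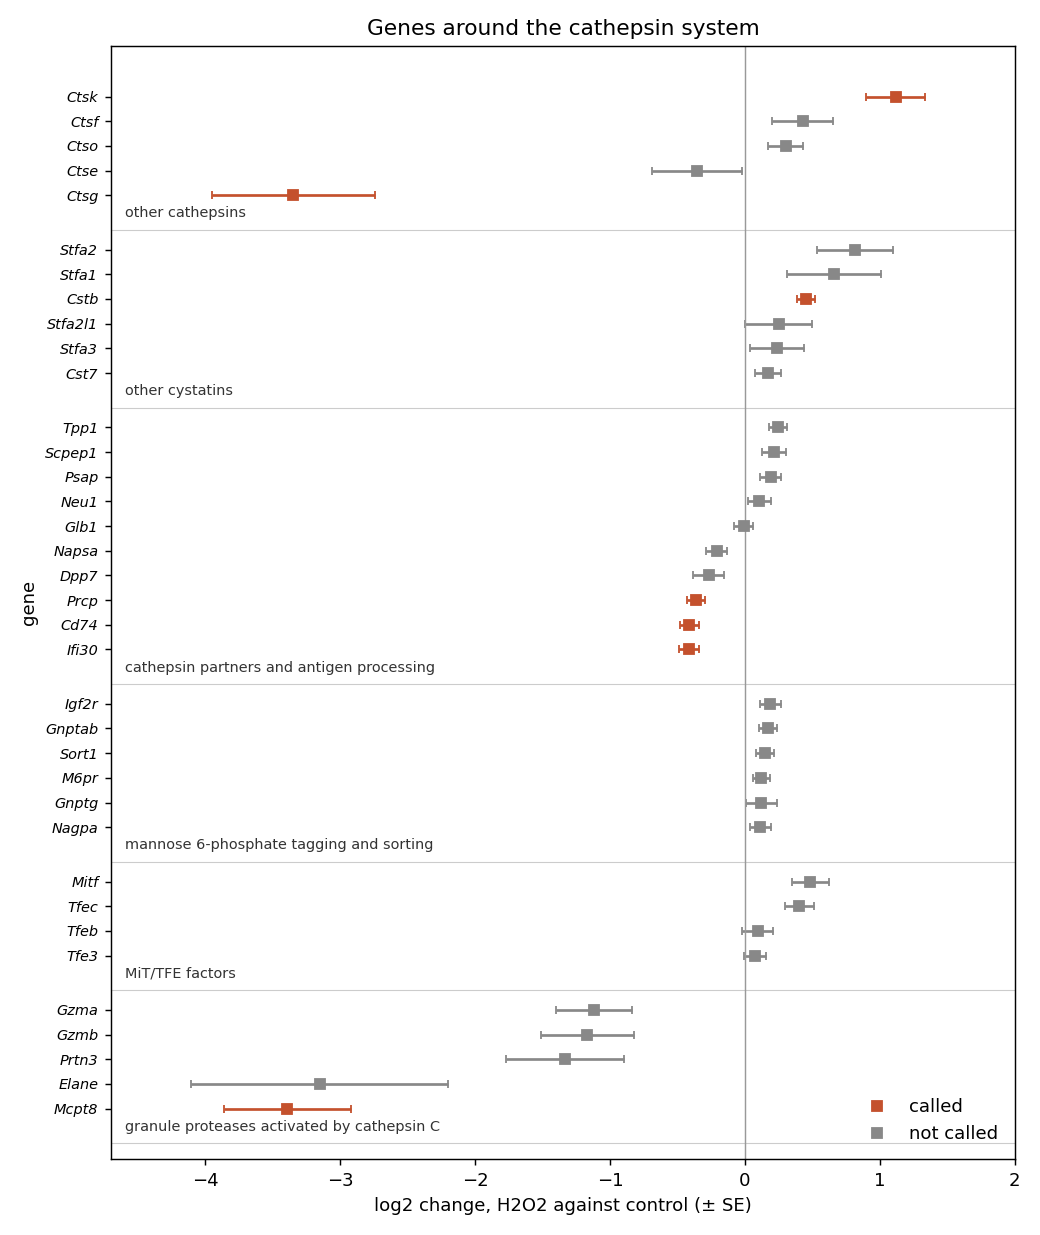
log2 change with H2O2 for the listed genes of the pathway, as squares with bars of 1 SE, grouped by list; orange marks an adjusted p of 0.05 or less and grey the rest. Ctsk and Cstb are called higher, and Cd74, Ifi30, Prcp, Ctsg and Mcpt8 lower, while no gene of the sorting or MiT/TFE lists is called.

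Of the cell type marker lists, only the macrophage and monocyte, osteoclast and giant cell, and mast cell and basophil sums stood apart between the groups. The sums of the other lists overlapped. The part of any cell type in the results above was not tested. Itgax, the gene of the sorted integrin, stood between 1473 and 2177 CPM in all libraries. The conventional dendritic cell markers had 0 of 9 tested genes higher and 4 lower (Irf8, Flt3, Dpp4 and Zbtb46). They summed to 3774 to 5487 CPM in the controls and 3378 to 5384 CPM with H2O2. Irf8, Flt3 and Dpp4 were below the controls of the same set in each set, but their groups overlapped across sets. Flt3 and Dpp4 were low, at most 12.7 and 18.5 CPM. Zbtb46 was below all controls in both H2O2 libraries (edgeR adjusted p = 0.0476). The macrophage and monocyte markers, cells in which lysosomal proteases are abundant, summed to 962 to 1153 CPM in the controls and 1193 to 1397 CPM with H2O2, without overlap. Of 11 tested, 1 was higher (Cd68, itself a lysosomal protein) and 2 were lower (C1qb and C1qc, at most 19.7 CPM). Cd68 was at 275, 309 and 304 CPM in the controls and 372 and 396 CPM with H2O2. Csf1r, the most abundant gene of that list, was at 490, 373 and 342 CPM in the controls and 607 and 424 CPM with H2O2, with overlap. Every H2O2 library lay above every control library for 3 of the 11. The osteoclast and giant cell markers summed to 823 to 973 CPM and 1073 to 1238 CPM, with Atp6v0d2 the 1 higher gene of 5. Atp6v0d2 made up most of that sum, at 537, 562 and 535 CPM in the controls and 703 and 822 CPM with H2O2. For every other gene of that list the groups overlapped.

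The neutrophil markers summed to 554 to 1300 CPM in the controls and 964 to 1818 CPM with H2O2, with 1 of 8 higher and 2 lower. Mmp8, the higher gene, made up most of that sum, at 432, 784 and 697 CPM in the controls and 845 and 1236 CPM with H2O2. The mast cell and basophil markers had 4 of 7 lower and summed to 32.8 to 74.0 CPM and 10.9 to 26.3 CPM, and the eosinophil markers had 1 of 4 higher and 3 lower. Those of plasmacytoid dendritic cells had 1 of 4 higher and 1 lower, with Siglech at 0 in all libraries. T and natural killer, B and erythroid markers summed to at most 2.07 CPM in any library, with 0 of 1, 0 of 0 and 0 of 0 tested genes called. Stromal and endothelial markers had 0 of 2 called, with Col3a1 at 0. Of 8 cell cycle genes 7 were lower, with sums of 428 to 1193 CPM in the controls and 308 to 542 CPM with H2O2.

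The genes most like the 3 called genes across the 5 libraries were found by the root mean square difference of centred log2 CPM, among 4012 genes averaging 50 CPM or more. For Ctsb they were Rin2 (0.041) and Cpt1a (0.054), for Ctsd Rnh1 (0.032) and Gfpt1 (0.043), and for Ctsl Ptgr1 (0.074) and Esd (0.085). The genes themselves ranged over 0.68 (Ctsb), 0.56 (Ctsd) and 1.01 (Ctsl) on that scale.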

How the data were processed

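RNA of 6 samples was sequenced on DNA nanoballs, per the labels' protocols. The deposited values are estimated counts per gene, per the file headers; they carry no normalization, and 8.38% to 9.03% of them per library were not whole. HISAT, Bowtie2 and build GRCm38.p6 come from the submitters' processing notes. Counter, annotation release and strand setting: not given in the sources used here. Symbols came from a RefSeq table of the same build, which matched 17520 of 17567 rows. The 47 others held 0.133% of counts. The 6 columns of a series-wide table were not used.

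Counts were rounded to whole numbers, filtered with filterByExpr (minimum count 10, minimum total 15) and scaled by TMM. H2O2 was compared with control by edgeR's quasi-likelihood F test with a set term, with 2 residual degrees of freedom, and a gene was called at an adjusted p (Benjamini-Hochberg) of 0.05 or less. A set by treatment interaction was tested in the same way, but with 1 residual degree of freedom. SE is the size of the log2 change divided by the root of F. The fit was also run on simulated counts. Their set difference and spread were taken from these same libraries, so that run cannot bear on the choice of the set term. An exact permutation test of 3 libraries against 2 cannot go below p = 0.1. Alternatives were no set term, a replicate block, other scalings, DESeq2, limma-voom, no filter, the copied library counted separately, each set alone and each library left out. The naming rule took all 10 genes, the nearest profiles of the called ones and, per list, the called genes, the most abundant gene and, with 5 or fewer tested, every gene. Cst7, the stefins, Neu1 and Glb1 were named outside it, after their values were seen. Marker lists are given mainly as sums and counts, with the called genes named only for conventional dendritic cells, macrophages and osteoclasts, and Mmp8 for neutrophils. The set term, the 10 genes and the 18 lists (118 further genes) were chosen with earlier results of these data known. Versions: DESeq2 1.42.0, edgeR 4.0.16, limma 3.58.1, on R 4.3.3.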

Additional observations from a re-analysis of the deposited data

How the results depend on the processing

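Of all genes, 480 were higher and 563 lower. Without the set term 0 and 0 were (853 at an unadjusted p under 0.05 in edgeR). With the replicate block in place of the set term 220 and 334 were, and 2 of the 10 genes (Ctsl and Ctsb) stayed called. The numbers do not pair samples by label, and the deviations of same-numbered libraries correlated at 0.795 and 0.695 across genes. Same-numbered libraries also share a set, so these correlations cannot tell a pairing by number from the set. Without the filter there were 60 and 42 calls, with the copy counted separately 1320 and 1500, with library totals 910 lower (384 higher), and in set B alone 1211 higher and 791 lower. Leaving out 1 library gave 1 to 1248 higher and 0 to 816 lower.

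Of the 10 genes, 3 were higher in the reported fit, 0 without the set term (3 at an unadjusted p under 0.05, against 6.99% of all genes), 0 without the filter and 5 in set B alone, with 0 to 5 when 1 library was left out. Cst3 was the 1 lower gene with library totals, DESeq2, the copy counted separately and set B alone, with 0 to 1 on leaving out libraries. The interaction called 2 genes, and 0 with DESeq2 size factors or without the filter. Ctsh reversed to -0.063 without H2O2 replicate 2, in a range up to 0.19 (without H2O2 replicate 1). The cause of these shifts was not tested.

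With either set A library left out, set B alone gives the H2O2 effect. Each of the 10 genes had at least 2356 counts per library, while Ctsg and Mcpt8 rest on few counts.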

Other observations

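The 10 genes summed to 13125, 12589 and 11565 CPM in control replicates 1 to 3 and to 15859 and 14854 CPM in H2O2 replicates 1 and 2. The make-up of that sum differed between the groups. Cst3 took 14.8%, 11.9% and 14.3% of it in the controls and 10.8% and 7.60% with H2O2, and Ctsz took 7.84%, 8.29% and 8.45% against 7.02% and 7.13%. Ctsl took 3.65%, 4.80% and 4.65% against 6.07% and 5.68%, and Ctsb 17.0%, 16.7% and 16.2% against 19.0% and 19.3%. These shares were chosen after the values were seen and were not tested.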
